A study of Homo sapiens with 8 samples.

Results

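RNA 5-methylcytosine (m5C) is written by the NSun family of methyltransferases and by TRDMT1, and is bound by reader proteins such as ALYREF and YBX1. The writers differ in their RNA substrates. NSUN2 methylates many cytosolic tRNAs and some mRNAs, TRDMT1 (also called DNMT2) and NSUN6 methylate cytosolic tRNAs, NSUN3 modifies the mitochondrial methionine tRNA, NSUN4 modifies mitochondrial rRNA, and NSUN5 and NOP2 (NSUN1) modify cytosolic rRNA. The catalytic cysteines of these enzymes form a transient covalent bond with the cytosine, and a mutant that cannot release its substrate stays linked to the RNA.

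The mRNAs of 10 such genes were described here as RNA: the writers NSUN2, NSUN3, NSUN4, NSUN5, NSUN6, NSUN7, NOP2 and TRDMT1 and the readers ALYREF and YBX1. They were chosen by name and counted over their annotated exons on the strand of the gene, and 8 of the 10 had at least 1 miCLIP read in exons, among 12703 genes with such reads in the series. All 8 samples of the series come from HEK293 cells, a transformed line of human embryonic kidney origin. For 6 samples, a myc-tagged NSun3 construct (3 replicates) or a myc-tagged NSun6 construct (3 replicates) was transfected and RNA crosslinked to the enzyme was recovered 24 hours later with an antibody to the tag and sequenced by miCLIP, in which reverse transcription stops beside the bound cytosine. The lysates received DNase and a light RNase digestion before the antibody. By the methods of the study the NSun3 construct was a full-length cDNA in which the cysteine needed for release was changed to alanine, and no further detail of the NSun6 construct was used here. Polyadenylated RNA was sequenced after bisulfite treatment in the other 2 samples, for which the labels name no transfection; bisulfite converts cytosine but leaves m5C. NSUN3 and NSUN6 are thus both members of the gene list and the enzymes introduced into the cells, and reads in their coding exons cannot be told apart as coming from the chromosomal gene or from the construct by position alone.

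With NSun3 the libraries held 47352 to 138921 reads, of which 25.3% to 39.1% lay in annotated exons on the strand of the gene, and with NSun6 305392 to 467586 reads, with 72.0% to 76.9% in exons. These exon shares include mitochondrial genes. The mitochondrial genome took 24.4% to 37.6% of all reads with NSun3 and 8.05% to 9.56% with NSun6. Much of the NSun3 exon share can thus be mitochondrial, and the share in nuclear exons alone was not computed. Where a position overlapped exons of a single strand, it lay on that strand in 63.0% to 82.0% of cases for NSun3 and in 97.0% to 97.4% for NSun6. Levels are given as RPM, in which all reads of a library form the total. A count of 3 reads, the limit that a count of 0 allows, was worth 21.6 to 63.4 RPM for NSun3 but 6.42 to 9.82 RPM for NSun6, so a low transcript was less detectable with NSun3. Such limits and the intervals given below cover counting error only.

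The sequences that carry the findings are shown as 21-nt windows of the RNA strand (written with T, 5′ to 3′) from the GRCh37 genome, with the site at the 11th base. Capitals mark the pentamer CTCCA where the cytosine starts it, and otherwise the cytosine alone. The first 3 windows are the NSUN6 cytosines that passed the high-confidence threshold with NSun6, the next 3 are the leading NOP2 and NSUN4 cytosines, and the last 2 are the cytosines with a high bisulfite level that stood alone.
NSUN6, chr10:18840884-18840904, minus strand, coding: ataggagaacCTCCAtttcta
NSUN6, chr10:18937494-18937514, minus strand, coding: ctgtcacatcCTCCAtcattt
NSUN6, chr10:18834900-18834920, minus strand, coding: ctaataaggaCtctataggtt
NOP2, chr12:6666467-6666487, minus strand, coding: aattacagtcCTCCAagaaag
NSUN4, chr1:46827611-46827631, plus strand, 3′ untranslated: tcggtcctgtCTCCAtcctgt
NSUN4, chr1:46830300-46830320, plus strand, 3′ untranslated: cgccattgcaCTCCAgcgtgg
NSUN2, chr5:6600013-6600033, minus strand, 3′ untranslated: cccaaggcagCgggggcccac
TRDMT1, chr10:17187973-17187993, minus strand, 3′ untranslated: aaatcaccatCtgggtttttg

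NSUN6 (ENSG00000241058, chr10:18834490-18948214, minus strand) carried the most miCLIP reads of the 10 genes, and on the strand of the gene they were seen with NSun6 only. Its exons held 323, 428 and 323 reads in NSun6 replicates 1, 2 and 3, and none in any NSun3 library. The groups did not overlap, which was also true, with all NSun6 libraries above all NSun3 libraries, of 36.6% of the genes with exon reads. The mean was 990.04 RPM ± 71.4 (SD, n = 3) with NSun6, at least 20.99-fold higher than the mean limit of the NSun3 libraries (3 reads per library). NSUN6 entered the fit across all genes through its NSun6 reads alone, so the filter on low counts fixed the direction and the fitted values describe a size. In the quasi-likelihood test of edgeR, the log2 fold change (NSun3 against NSun6) was -10.70 (SE 0.54) with a Benjamini-Hochberg adjusted p of 0.000337. The same test with a block for replicate number gave NSUN6 an SE of 4.69 and an adjusted p of 0.0787. Of the 1367 genes tested, 90.7% were lower and 2.05% higher in NSun3 at an adjusted p under 0.05 and the median log2 fold change was -7.77, so that NSUN6 lay at -2.93 relative to that median on the log2 scale. Fitted fold changes against libraries at 0, and the SE derived from them, depend on the prior count and are not bounds. By exon reads with NSun6, NSUN6 ranked 67 among nuclear protein-coding genes.

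All 1074 NSun6 reads in NSUN6 exons lay in the coding sequence, which takes 1407 nt of the 2166-nt reference transcript, and none lay in either untranslated region. Of 1114 nuclear protein-coding genes with at least 100 NSun6 exon reads, 70, NSUN6 included, had all of their reads in coding sequence, and the median share was 44.5%. Reads on the opposite strand of the NSUN6 coding exons were frequent as well, with 146, 152 and 121 reads in NSun6 replicates 1, 2 and 3. They made up 31.1%, 26.2% and 27.3% of coding reads of both strands, a share in a narrow range across replicates. Over all exons, coding or not, 998 of the same 1114 genes had no antisense read. Only 4, NSUN6 included, had an antisense share of exon reads as high as its pooled 28.1%. Intronic reads were few, and in replicates 2 and 3 most lay within 2 nt of an exon edge (16 of 18 and 9 of 10), against 0 of 4 in replicate 1. With NSun3, the NSUN6 coding exons held no sense read, and 12 antisense reads at a single position in replicate 2.

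**Figure D1:**
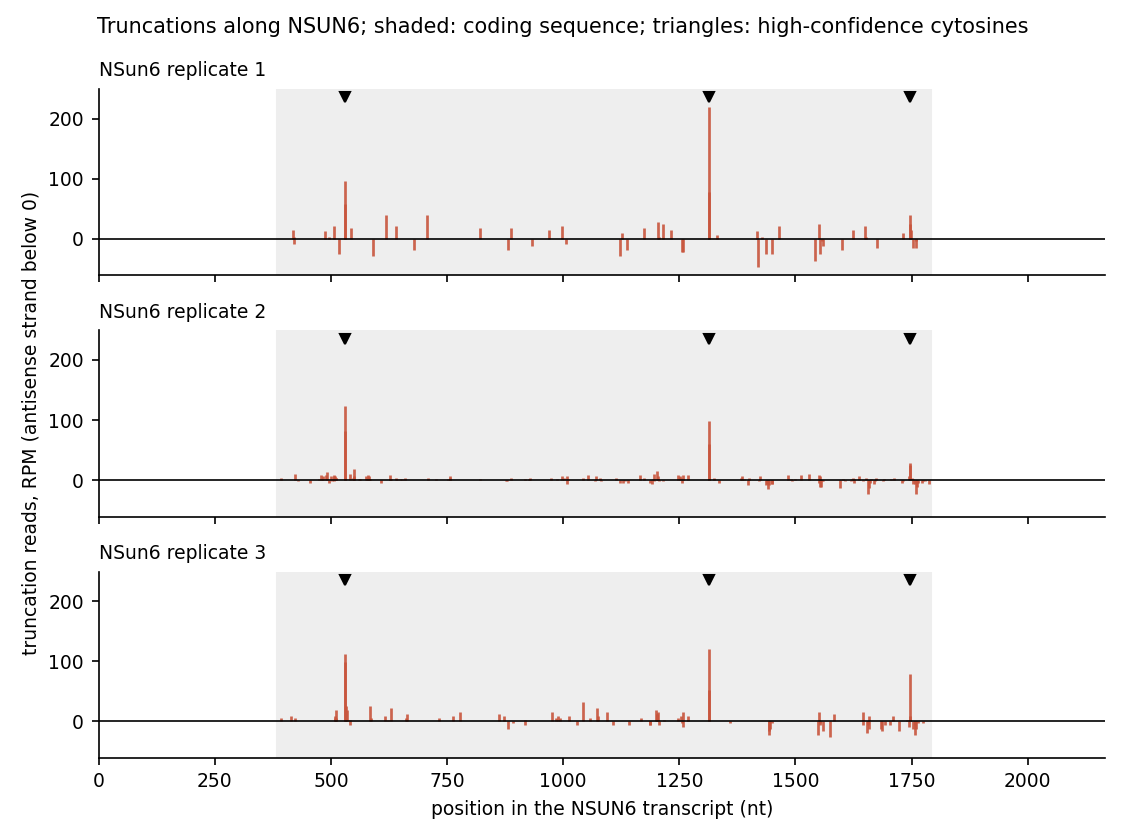
Truncation reads (RPM, y axis) along the NSUN6 transcript (nt, x axis) in the 3 NSun6 libraries, with antisense reads drawn below 0, the coding sequence shaded and the 3 high-confidence cytosines marked by triangles. In each library the reads fall inside the coding sequence and the highest bars stand at the marked cytosines.

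A high-confidence cytosine had over 50 RPM in at least 2 of 3 replicates, where a truncation counts for the closest cytosine no more than 2 nt away. With NSun6, 3 cytosines of the 10 genes passed, all in the NSUN6 coding sequence. Among all 90259 nuclear cytosines with reads of either enzyme, 1.99% passed with NSun6. No cytosine of the 10 genes passed with NSun3, where 0.433% of the same 90259 passed. NSun6 reads were present at 84932 nuclear cytosines, and the share among cytosines with NSun3 reads was not computed. The leading NSUN6 cytosine, chr10:18840894 in exon 9, had 96, 74 and 53 reads in replicates 1, 2 and 3 (209.4 RPM ± 75.7, SD, n = 3). The cytosine at chr10:18937504 in exon 2 had 50, 96 and 64 reads (189.7 RPM ± 30.7). Both start a CTCCA, and they are the only 2 CTCCA in the NSUN6 coding sequence. The cytosine at chr10:18834910 in exon 11 had 21, 28 and 27 reads (71.0 RPM ± 15.2) and starts no CTCCA.

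The 3 cytosines took 51.7%, 46.3% and 44.6% of the NSUN6 exon reads in replicates 1, 2 and 3. The remaining reads were scattered and mostly not shared: of 154 sense positions over 2 nt from these cytosines, 17 had reads in at least 2 replicates and 2 in all 3. Of 101 antisense positions, 20 had reads in at least 2 replicates and 2 in all 3. Of the 831 NSun6 reads in NSUN6 that were assigned to a cytosine, 52.1% were at the 2 CTCCA cytosines, although 73 cytosines had reads. Each of the 3 windows shown occurs 1 time in the genome.

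NSUN3 (ENSG00000178694, chr3:93781824-93850676, plus strand) had reads in its coding exons with NSun3, but at other positions in every replicate. On the strand of the gene, NSun3 replicates 1, 2 and 3 held 32, 19 and 0 reads (196.2 RPM ± 181.6, SD, n = 3), and the NSun6 libraries held 0, 0 and 8. The groups overlapped, the exact two-sided permutation test gave p = 0.4, and NSUN3 was too low for the gene-wide test. All 51 sense reads in the NSun3 libraries lay in the coding sequence, which takes 1020 nt of a 6431-nt transcript, whereas none of the 8 reads of NSun6 replicate 3 did, 7 of them lying in the 3′ untranslated region.

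Counting the opposite strand changed this picture, since NSun3 replicate 3 had only antisense reads. Antisense reads in NSUN3 coding exons numbered 12, 13 and 27 in NSun3 replicates 1, 2 and 3, and 0 in each NSun6 library. On both strands together, the coding exons held 44, 32 and 27 reads with NSun3 (317, 604 and 570.2 RPM) and none with NSun6. These groups did not overlap, and the exact two-sided permutation test gave p = 0.1, the smallest value that 3 against 3 libraries can give. On the strand of the gene alone, 0.307% of genes had all NSun3 libraries above all NSun6 libraries. The share for both strands was not computed, so 0.307% is not its match. Positions lay on the exon strand less often with NSun3 (63.0% to 82.0%) than with NSun6 (97.0% to 97.4%). The count on both strands was added after the values were seen. Of 10 sense and 8 antisense positions in the NSun3 libraries, 0 were shared between replicates, and a few positions held most reads: chr3:93783320 had 19 reads in replicate 1, chr3:93813002 had 17 in replicate 2, and chr3:93813101 had 26 antisense reads in replicate 3. No NSUN3 cytosine reached the high-confidence threshold. The leading one, chr3:93783322, had 19, 0 and 0 reads.

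**Figure D2:**
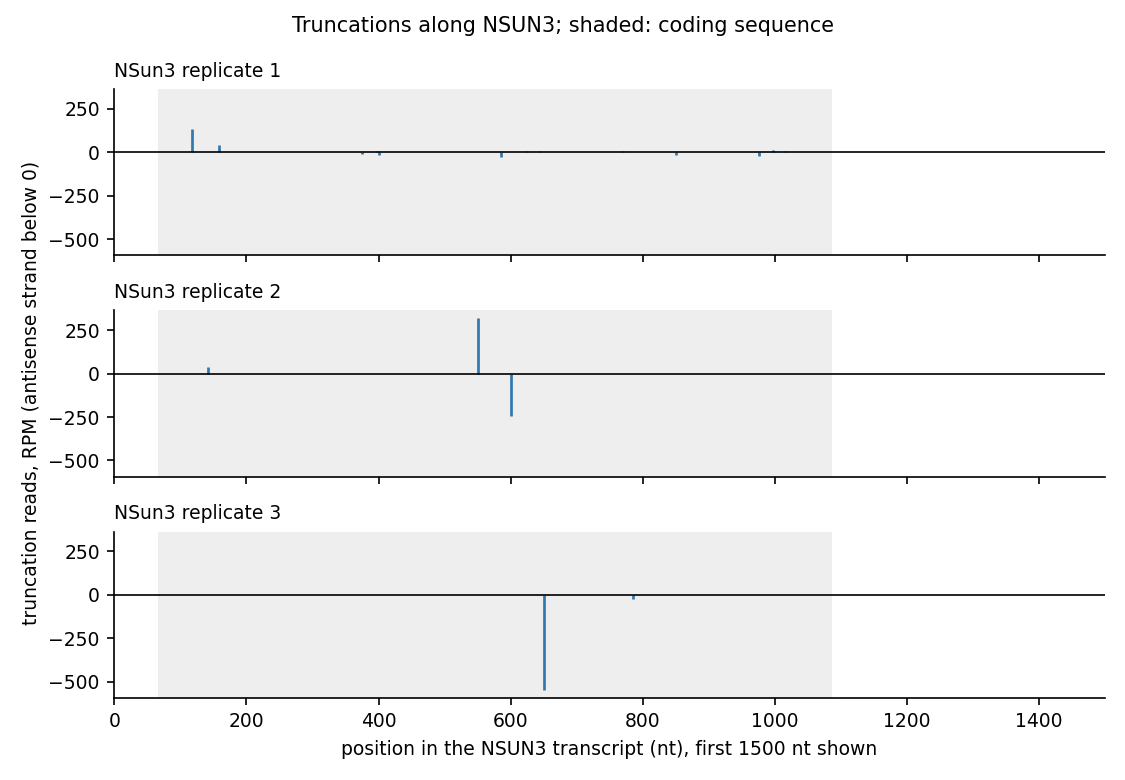
Truncation reads (RPM, y axis) along the first 1500 nt of the NSUN3 transcript (x axis) in the 3 NSun3 libraries, antisense reads below 0 and coding sequence shaded. The bars stand at different positions in each replicate, and replicate 3 has antisense reads only.

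NOP2 (ENSG00000111641, chr12:6666029-6677857, minus strand) was the member with most reads among those not transfected. It held 31, 45 and 41 reads in NSun6 replicates 1, 2 and 3 (108.7 RPM ± 22.1, SD, n = 3) and none with NSun3, at least 2.30-fold higher with NSun6. The groups did not overlap (36.6% of genes behaved so), and the edgeR test gave a log2 fold change of -7.51 (SE 1.08, adjusted p = 0.00265), 0.25 above the median of all genes tested. NSUN6 and NOP2 were the only members that entered this test. NOP2 too passed the filter through its NSun6 reads alone, which fixed the direction. In the edgeR test with a block for replicate number, NOP2 had an SE of 3.64 and an adjusted p of 0.0787. It no longer passed the filter when any single NSun6 library was left out. A second annotated gene on the same strand, ENSG00000285238, shares exons with NOP2. It held 31, 50 and 48 exon reads in NSun6 replicates 1, 2 and 3, among them every one of the NOP2 reads, so the values given for NOP2 cannot be assigned to either gene alone. Unlike NSUN6, NOP2 had 3′ untranslated reads and no antisense read in coding exons: 28 of 31, 41 of 45 and 25 of 41 reads were coding in replicates 1, 2 and 3, a pooled 80.3%. The 3 genes nearest to NOP2 by Euclidean distance of log2(RPM + 1) over the 6 libraries were RAE1 (distance 0.20), XPO7 (0.22) and EXT2 (0.23), each with no read in an NSun3 library.

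NOP2 reads were spread over 17 cytosines, of which 2 had reads in at least 2 replicates and 1 in all 3. The leading cytosine, chr12:6666477 in exon 16 (coding), had 18, 22 and 0 reads, or 55.6, 47.1 and 0 RPM, just short of the high-confidence rule. A cytosine in the 3′ untranslated region of the same exon, chr12:6666084, had 3, 2 and 16 reads, with the high value in replicate 3 only. The coding sequence of NOP2 has 9 CTCCA, and 6 of them had NSun6 reads at their first cytosine. These 6 took 56.3% of the 112 assigned reads. Single libraries decided most of the other values, such as 10 reads in replicate 1 at chr12:6675300.

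**Figure D3:**
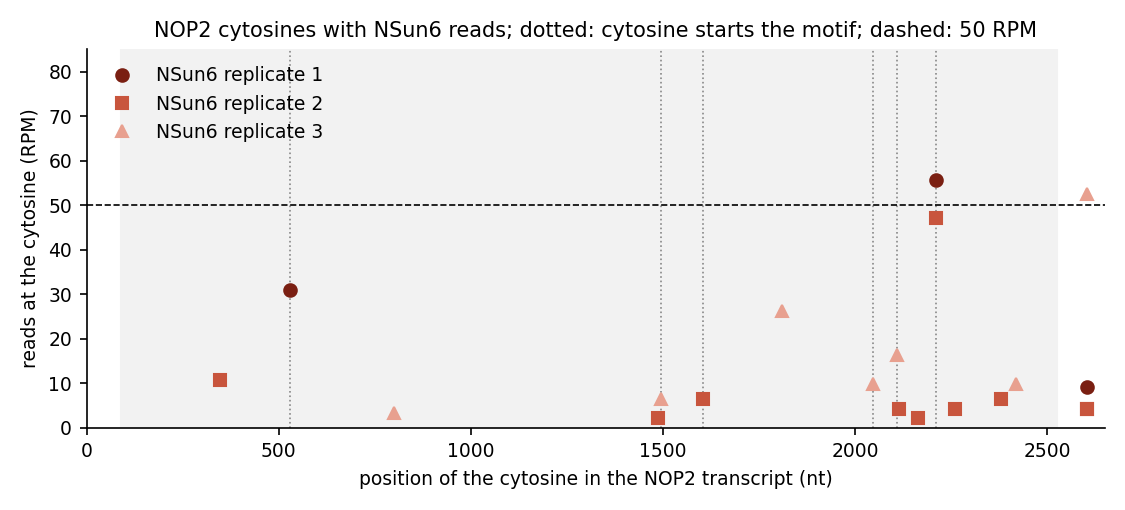
Reads at each NOP2 cytosine (RPM, y axis) against its position in the transcript (nt, x axis) in the 3 NSun6 libraries, with dotted lines at cytosines that start CTCCA and a dashed line at 50 RPM. The 2 highest cytosines exceed 50 RPM in 1 library each.

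The other writers had few exon reads, all with NSun6. NSUN4, the mitochondrial rRNA methyltransferase, had 0, 7 and 14 reads (20.3 RPM ± 23.4, SD, n = 3), and none of the 21 lay in its coding sequence. The cytosine at chr1:46827621 had 0, 4 and 8 reads and that at chr1:46830310 had 0, 1 and 6, both in the 3′ untranslated region. All 3 NSUN4 cytosines with reads start CTCCA. The window at chr1:46830310 occurs 120 times in the genome. TRDMT1 had 5, 10 and 0 reads (12.3 RPM ± 11.04) at 6 cytosines, none shared between replicates and none starting CTCCA. NSUN2 had 5, 0 and 0 reads, all at chr5:6607443 in coding exon 13, and NSUN5 had 0, 3 and 0. The exact permutation tests of these 4 genes gave p from 0.4 to 1.0, and their mean NSun6 levels lay below the lowest NSun3 limit of 21.6 RPM, a range in which a count of 0 with NSun3 says little. With no filter on low counts, edgeR gave NSUN4 a log2 fold change of -5.42 (SE 2.17, adjusted p = 0.0416), in a fit that called 30.3% of all genes lower in NSun3, while DESeq2 gave -4.35 (adjusted p = 0.253). The edgeR fit with no filter did not call NSUN2, NSUN5 or TRDMT1, and DESeq2 gave these 3 genes no adjusted p. NSUN7 had no read in its exons on the strand of the gene, and 5 intronic reads on the other strand in NSun6 replicate 2.

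The readers were almost absent from the miCLIP data. ALYREF, an mRNA export adaptor, had 1 read, in NSun6 replicate 1. YBX1, which binds m5C in the cytoplasm and stabilises mRNA, had 0 reads in all 6 libraries, although it was the best covered of the 10 transcripts in bisulfite RNA sequencing. Of the 30-mers in YBX1 exons 58.5% occurred 1 time in the genome, and of those in NSUN5 53.6%, against 90.3% to 97.5% in the other 8 genes. The alignment kept only reads with a single best place, and the part of this in the low counts was not tested. None of the 12 annotated NSUN5 and YBX1 pseudogenes had an exon read.

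Per kb of exon, the mean level with NSun6 was 286 RPM ± 20.6 (SD, n = 3) in NSUN6 and 23.2 RPM ± 4.72 in NOP2. It was 2.58 ± 2.98 in NSUN4, 0.99 ± 1.71 in NSUN3, 0.93 ± 1.62 in NSUN2, 0.79 ± 0.71 in TRDMT1, 0.65 ± 1.13 in ALYREF and 0.63 ± 1.10 in NSUN5, and 0 in NSUN7 and YBX1. NSUN6 and NOP2 stood apart from each other and from the rest by more than the spread of the replicates, while from NSUN4 downwards neighbouring genes did not differ beyond it.

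**Figure D4:**
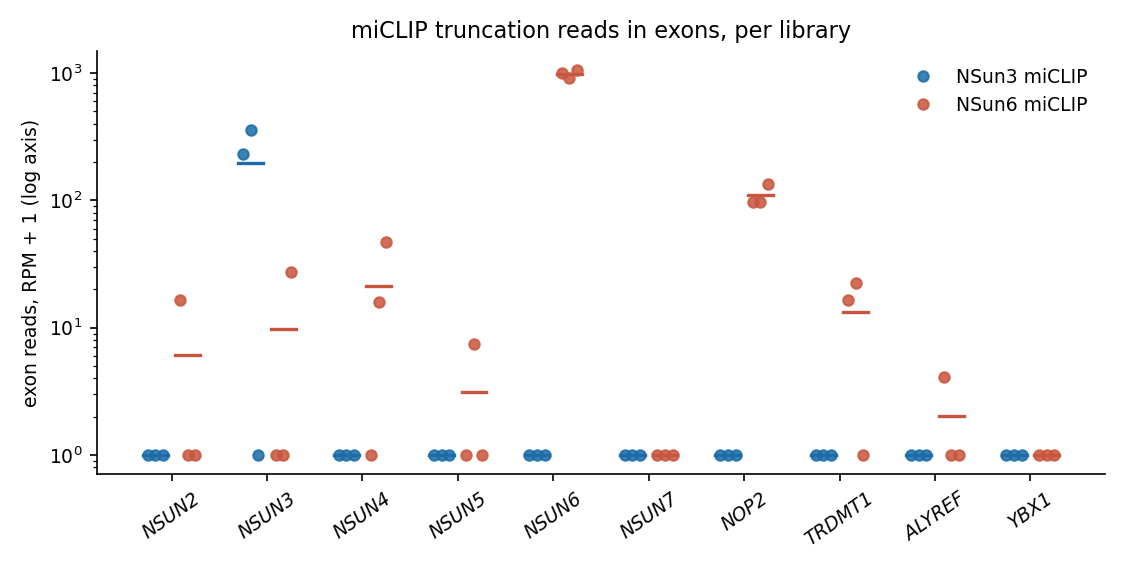
Exon reads of the 10 genes (RPM + 1, log axis) in the 3 NSun3 (blue) and 3 NSun6 (red) libraries, with short lines at the means. Only NSUN6 and NOP2 have reads in all 3 libraries of an enzyme, and libraries with no read sit at 1.

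Across the 10 genes, 106 cytosines had NSun6 reads and 14 of them (13.2%) started CTCCA, searched on the RNA strand only. In the 8 genes that were not transfected the share was 10 of 30 (33.3%). Among all nuclear cytosines with NSun6 reads it was 32.4%, and among the 1794 high-confidence ones 65.7%. CTCCA starts at 0.697% of the exonic cytosines of the 10 genes and at 0.729% of all exonic cytosines. NSUN6 itself had 2 of 73.

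Other genes of RNA modification and export were read in the same fit. Each listed gene that was tested had 0 NSun3 reads, or 1 in the case of YTHDC2, and so passed the filter on low counts through its NSun6 reads. A call lower in NSun3 therefore follows from the filter and is given as a description (90.7% of all genes tested were so called). For m5C removal and other proposed readers, 11 of 12 genes had NSun6 reads, none had NSun3 reads and 3 were tested and called: the splicing factor SRSF2 (1176 RPM ± 312 with NSun6, SD, n = 3), the YBX1 paralogue YBX3 (129.9 ± 8.86) and the mRNA-binding protein IGF2BP1 (160.9 ± 36.3). Of the 3 DNA cytosine methyltransferases only DNMT3B was tested, and it was called. Of 15 m6A genes, 2 were tested and both called, the writer subunit WTAP (528 RPM ± 22.3) and the helicase reader YTHDC2 (111 ± 43.5). Of 11 pseudouridine synthases 1 was tested and called, RPUSD1 (333 RPM ± 30.4), and of 12 export partners of ALYREF 1 was tested and called, the helicase DDX39B (91.3 ± 23.5). The other listed genes did not pass the filter on low counts.

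Bisulfite RNA sequencing gave both the read coverage and the methylation of these mRNAs, in 1 table for both samples and therefore without replicate error. Coverage was not corrected for repeated sequence or for exons shared with another gene, so it measures abundance only roughly. Mean coverage per exonic cytosine was 1120 reads in YBX1 (rank 94 of 20163 protein-coding genes), 308 in ALYREF, 130.1 in NOP2, 126 in NSUN2, 77.9 in NSUN5, 36.8 in NSUN4, 17.4 in NSUN6, 7.95 in NSUN3 and 3.57 in TRDMT1, against a median of 11.7. NSUN7 had no read there. These means rest partly on a few deep cytosines, up to 26997 reads in YBX1. Over cytosines with more than 5 reads the median was 259.5 in YBX1, 86.5 in NOP2, 74 in NSUN2 and 63 in ALYREF, so that ALYREF stood below NOP2 and NSUN2 by the median. In bulk RNA, fewer cells with a transcript and less of it per cell cannot be told apart. The order was thus unlike that of miCLIP with NSun6, in which the transfected gene NSUN6 and then NOP2 led and the readers had 1 read or none. Within the reference transcripts, coding cytosines had a higher mean coverage than untranslated ones in 7 of the 9 covered genes, from 17.1 against 8.50 reads in NSUN3 and 36.5 against 8.85 in NSUN6 to 3217 against 244 in YBX1, where the deepest cytosines carry the mean, and a lower one in NSUN2 (186 against 364) and TRDMT1 (1.498 against 4.11). The line's markers VIM, KRT8, KRT18, NEFL and NEFM were covered (128 to 2699 reads per cytosine) and PAX2 weakly (4.08), whereas CD3E, HBB and INS were at 0 and PTPRC, MYH7 and ALB at 0.311 or below.

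Few cytosines of these mRNAs were called methylated. Of 13341 exonic cytosines, 5342 were covered by over 5 reads and 11 were called methylated (level of at least 20%), which is 0.206% (exact 95% binomial interval 0.103% to 0.368%, as if cytosines shared no reads), beside 0.268% of all exonic cytosines in the same table. Over the covered cytosines 0.102% of reads were methylated, against 0.132% in all exons. The 11 lay in NSUN2 (1), NSUN3 (4) and TRDMT1 (6).

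The best supported was in NSUN2 itself. In its 3′ untranslated region, chr5:6600023 was methylated in 80 of 164 reads, 48.8% (exact interval 40.9% to 56.7%, as if each read were 1 molecule), while the 8 covered cytosines within 10 nt had 2 methylated of 1068 reads. In TRDMT1, chr10:17187983 in the 3′ untranslated region was methylated in 9 of 16 reads, 56.3% (29.9% to 80.2%), and 3 covered neighbours had 0 of 54. These were the 2 member cytosines called with no other called within 10 nt, as were 0.0286% of all covered exonic cytosines. Both start the pattern CNGGG, which was chosen after the windows were seen and searched on the RNA strand. It starts at 2.68% of all covered exonic cytosines, 6.98% of those called and 19.9% of those called with none within 10 nt, and at 1.87% of the exonic cytosines of the 10 genes. Both windows occur 1 time in the genome.

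The other 9 calls formed clusters of shared low counts. In TRDMT1, 5 cytosines between chr10:17183210 and 17183218 each had 2 of 6 reads methylated (33.3%, exact interval 4.33% to 77.7%), and in NSUN3, 4 cytosines between chr3:93848710 and 93848717 each had 2 of 10 (exact interval 2.52% to 55.6%), exactly at the threshold of 20%. The 21-nt windows around them occur 6881 to 91097 times in the genome in TRDMT1 and 14 to 2514 times in NSUN3. Just below the threshold, the NSUN4 cytosine chr1:46830322 had 4 of 21 reads methylated (19.05%, 5.45% to 41.9%), with none of 377 reads at its 3 covered neighbours. In ALYREF, GC-rich 5′ coding cytosines reached 10.9% (6 of 55 reads at chr17:79849324), and their neighbours were partly unconverted too, with 19 of 349 reads. In YBX1 the highest level was 14.3%, from 2 of 14 reads, in NOP2 3.61% and in NSUN6 4.35%.

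**Figure D5:**
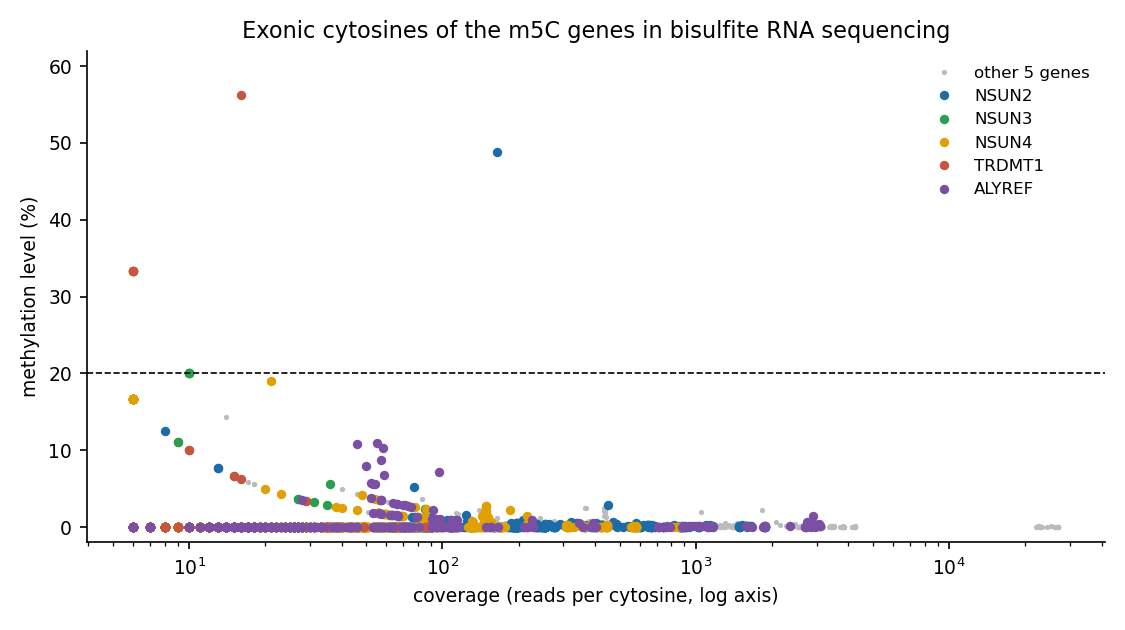
Methylation level (%, y axis) against coverage (reads, log x axis) of the 5342 exonic cytosines of the 10 genes covered by over 5 reads, with a dashed line at 20%. The NSUN2 cytosine at 48.8% stands alone above a coverage of 100 reads, and the other called cytosines have 16 reads or fewer.

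The bisulfite table also covered part of the cytosines with miCLIP reads. Of 110 such cytosines, 67 were covered by over 5 reads and 0 were called methylated, a count that the share of 0.268% over all covered exonic cytosines also gives for so few, with 20 methylated of 9998 reads in all and a highest level of 1.11%. NSUN6 had 0 methylated of 2890 reads summed over 42 covered cytosines and NOP2 had 0 of 3513 over 15. Neighbouring cytosines share reads, so these sums are not independent reads and no limit is given for them. Coverage at the leading sites was uneven. Among the high-confidence NSUN6 cytosines, chr10:18834910 had 0 of 233, chr10:18840894 had 0 of 6 (exact upper bound 45.9%) and chr10:18937504 had no reads, so that the level of the 2 CTCCA cytosines was hardly measured. The leading NOP2 cytosine, chr12:6666477, had 0 of 32 (up to 10.9%), and the NSUN4 cytosines chr1:46827621 and chr1:46830310 had 0 of 49 and 0 of 131. The cytosines methylated in NSUN2 and TRDMT1 had no miCLIP read of either enzyme.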

How the data were processed

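The members and gene lists were chosen with earlier results of these data known. For miCLIP (3 replicates per enzyme), the authors collapsed reads that shared a random barcode, aligned the rest to hg19 with Bowtie (unique placement, 1 mismatch) and deposited truncation counts, which are whole numbers, by genome position. The files have no strand column, and their first and second pass over the chromosomes were taken as the plus and the minus strand. For bisulfite RNA sequencing (2 samples, Bismark per the labels), the authors deposited 1 table with the percent methylated and the counts of methylated and unmethylated reads per cytosine, whose positions count from 0. Levels were made both with and without PCR duplicates, per the methods. The version held by the table and the way its samples were combined are not given in the sources used here, so intervals on its reads may be too narrow. Replicates may be technical, so p-values measure only the spread between these samples.

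Exon counts (GENCODE, GRCh37) entered the quasi-likelihood model of edgeR 4.0.16 (TMM, filterByExpr, adjusted p under 0.05), and with DESeq2 1.42.0 as an alternative. RPM divides by all reads of a library. Members below the filter were compared with exact permutation tests. SE was taken from the size of the fold change and its F statistic, so it sets no bound where a group had no reads. The fit was also run on simulated counts in which 200 genes were changed 8-fold, up or down. In the data 90.7% of genes tested were called lower in NSun3, so that run says little about this comparison. All 10 members are named. Of the listed genes those called are named, and the cytosines named are those with the highest RPM per member, the high-confidence ones and those called methylated, with a few named after their values were seen. Alternatives changed scaling, filter, tool, replicate block, counted region, site threshold, coverage and level.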

Additional observations from a re-analysis of the deposited data

How the results depend on the processing

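NSUN6 and NOP2 had no NSun3 exon read, so their direction in every fit was set by the counts and is no sign of stability. The log2 fold change was -11.15 to -10.01 in 12 alternative fits for NSUN6 (adjusted p under 0.05 in 11) and -7.97 to -6.82 in the 9 that tested NOP2 (8). With the replicate block, NSUN6 (-10.69) and NOP2 (-7.52) both had an adjusted p of 0.0787. In that fit 4 of 1928 genes tested were called, in place of 1268 of 1367. Whether the numbers pair the samples was not settled. Same-numbered libraries correlated at 0.033 to 0.089 and others at -0.059 to 0.018, each library best with its own number. All these correlations are weak, and the fit with the block is not set aside by them. Calls numbered 3930 of 12703 genes tested with no filter on low counts and 3617 of 12698 with DESeq2. Without an NSun6 library they numbered 565 to 626, with 662 to 720 genes tested, and NOP2 passed the filter in none of these fits. Without an NSun3 library they numbered 2107 to 2599, with 2819 to 2858 genes tested. RLE scaling moved the median log2 fold change of all genes from -7.77 to -8.23. NSUN3 was tested in 7 alternatives, 5 of them with a filter that it passed through its NSun3 reads, so its shared direction there is no support. Its log2 fold change was 3.16 to 9.13, with an adjusted p of 1.02e-13 to 0.303 and under 0.05 in 2 (no filter, and without NSun3 replicate 3, the library with no sense read).

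Methylated calls in the members numbered 6 at coverage over 9, 1 at over 19 and at over 49, 55 at a level of at least 10%, 2 at 40% and 2 with none called within 10 nt. At coverage over 9, 0.133% of covered member cytosines were called, beside 0.220% of all exonic cytosines. The shares were 0.0312% and 0.157% at over 19, 0.0445% and 0.104% at over 49, and 0.0374% and 0.0852% at 40%. The order reversed at 10% (1.03% beside 0.779%) and with none called within 10 nt (0.0374% beside 0.0286%). The NSUN2 cytosine was the call left at over 19. High-confidence NSun6 cytosines of the members numbered 2 over 100 RPM, 4 over 20 RPM and 3 otherwise. Of all nuclear cytosines with reads of either enzyme, 1.05% passed over 100 RPM, 4.31% over 20 RPM and 1.40% to 2.15% otherwise. With antisense coding reads, chosen after seeing the data, mean RPM rose from 196.2 to 497 in NSUN3 and from 990.04 to 1381 in NSUN6. Without 1 NSun3 library the NSUN3 mean was 115 to 294 RPM. Coding shares moved by less than the spread between libraries. Depth with NSun3 limits the genes with few NSun6 reads, and the bisulfite table has no replicates.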
